A study of Homo sapiens with 3 samples.

Results

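The genes described here encode the proteins that recognise the branchpoint, build the core of the spliceosome and open the lariat that splicing leaves behind. They are SF1, U2AF1, U2AF2, SF3B1, SF3B2, SF3B3, PRPF8, SNRNP200, EFTUD2 and DBR1. Their members are the capture targets that lie fully inside 10 genomic windows, 1 for each gene, in a deposited list of targets on the build hg19. The windows held 309 of the 377858 intervals of that list and 30938 targeted bases. The study made 3 libraries from K562, an established human leukaemia cell line of erythroid and myeloid character. All 3 are biological replicates of 1 group, with no treatment given, made from ribosomal RNA-depleted total RNA. ERCC spike-in RNA was added to 1% in replicates 1 and 2 and 1.08% in replicate 3. Their reads, branchpoint calls and depths were not analysed here, and the list is common to all 3, so its counts are a census without replicate error and no comparison between groups exists.

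The list was designed to capture both ends of introns, because a read from a lariat joins the 5′ end of an intron to its branchpoint near the 3′ end. Each interval carries a score, a whole number from 0 to 125 over the whole list. The sources used here give neither its meaning nor its unit, so it is reported as a score and not as expression or as reads captured.

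In splicing, SF1 first binds the branchpoint sequence, while U2AF2 binds the polypyrimidine tract and U2AF1 the AG at the 3′ splice site. The U2 small nuclear ribonucleoprotein (snRNP) then replaces SF1, and its SF3B proteins, with SF3B1 as the large scaffold, hold the branchpoint against the snRNA. PRPF8, the helicase SNRNP200 and the GTPase EFTUD2 belong to the U5 snRNP, where PRPF8 forms the cavity of the catalytic centre. DBR1 cuts the branchpoint bond of the released lariat, after which the intron can be degraded.

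The targets leave out exons, so neighbouring targets frame them. A gap whose length was that of an annotated exon plus 1 base was taken as a candidate for that exon when it followed the gene's order and did not itself span a matched intron. For 7 genes, 1 coding exon is shown here, the shortest among those with a sequence read whose neighbouring introns were both found by length. In EFTUD2 a shorter gap, of 37 nt, lay between matched introns of 1042 and 1370 nt, but no sequence was read for it. Each exon shown was sought only among exons of the gene its window is named for. It therefore does not by itself show which gene the window holds. The sequences are those of GENCODE release 29 transcripts, 5′ to 3′ on the gene's strand, the coordinates are those of the gap on hg19, and capitals mark the last 3 exon bases, which face the 5′ splice site.
SF1 exon between targets, gap chr11:64535577-64535758, minus strand: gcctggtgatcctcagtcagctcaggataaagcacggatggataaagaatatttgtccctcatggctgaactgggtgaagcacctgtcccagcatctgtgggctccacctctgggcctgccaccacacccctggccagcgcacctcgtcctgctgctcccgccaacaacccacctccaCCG
U2AF2 exon between targets, gap chr19:56173868-56173985, plus strand: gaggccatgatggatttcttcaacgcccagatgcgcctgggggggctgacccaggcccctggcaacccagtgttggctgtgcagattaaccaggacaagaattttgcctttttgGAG
SF3B2 exon between targets, gap chr11:65828053-65828203, plus strand: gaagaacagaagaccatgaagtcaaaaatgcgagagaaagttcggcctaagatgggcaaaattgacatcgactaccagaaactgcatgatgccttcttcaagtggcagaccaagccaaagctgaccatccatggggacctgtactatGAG
SF3B3 exon between targets, gap chr16:70578341-70578437, plus strand: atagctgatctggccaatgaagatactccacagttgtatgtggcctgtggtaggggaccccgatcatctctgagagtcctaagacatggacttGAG
PRPF8 exon between targets, gap chr17:1577735-1577974, minus strand: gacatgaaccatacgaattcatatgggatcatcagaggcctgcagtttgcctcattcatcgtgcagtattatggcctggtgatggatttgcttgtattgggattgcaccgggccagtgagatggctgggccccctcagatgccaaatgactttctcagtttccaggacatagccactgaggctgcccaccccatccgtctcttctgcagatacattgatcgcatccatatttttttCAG
EFTUD2 exon between targets, gap chr17:42945654-42945718, minus strand: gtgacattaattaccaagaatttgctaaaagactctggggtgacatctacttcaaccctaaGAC
DBR1 exon between targets, gap chr3:137888948-137889034, minus strand: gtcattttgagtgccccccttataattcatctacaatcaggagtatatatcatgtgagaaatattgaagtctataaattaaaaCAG
The lengths of these exons were 181 bases in SF1, 117 in U2AF2, 150 in SF3B2, 96 in SF3B3, 239 in PRPF8, 64 in EFTUD2 and 86 in DBR1. Of the 43 coding exons with a sequence read next to at least 1 matched intron, 30 ended in AG and 35 in G, the last exon base of the usual 5′ splice site. These ends are those of the annotated exons, so they do not check whether a gap was given the right exon. The share over all coding exons of these genes was not counted.

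Whether each window holds the gene it is named for was checked by lengths alone, since the annotation used here lies on GRCh38 and no coordinates were converted. A pair of neighbouring targets was taken to span an intron when its outer length plus 1 base equalled an intron length of the gene. In the EFTUD2 window, 24 of 51 neighbouring pairs spanned an EFTUD2 intron length, and no other of the 10 genes matched more than 3. The SF3B3 window had 14 own matches of 44 pairs against at most 2 for another gene. PRPF8 had 8 of 43 against at most 1, U2AF2 6 of 15 against at most 2, DBR1 6 of 12 against at most 1 and SF3B2 4 of 19 against at most 1. SF1 was not set apart in this way, with 3 of 13 pairs matching its own introns and 3 matching those of PRPF8. U2AF1 had 1 interval and so no pair.

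**Figure D1:**
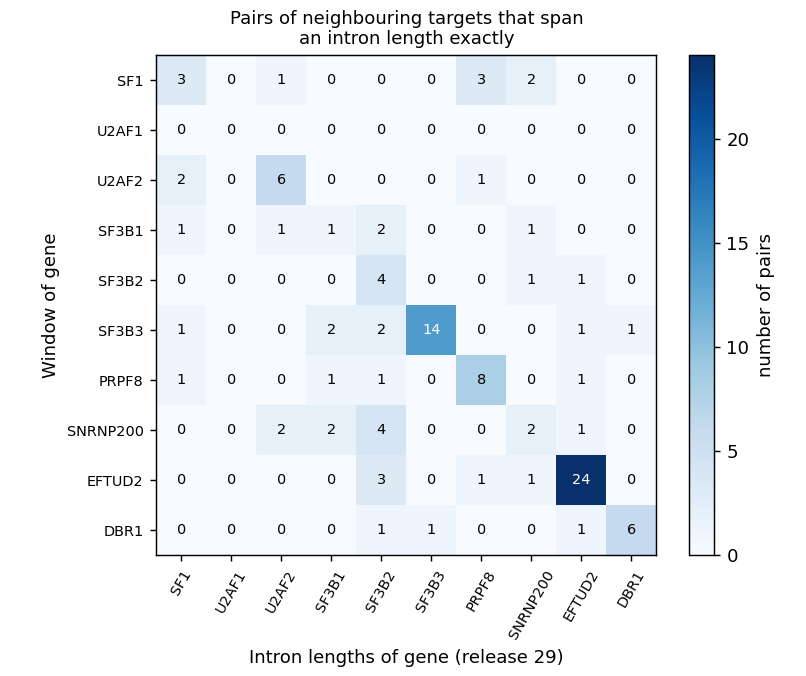
Number of neighbouring target pairs in each gene window (rows) whose outer length matches an intron length of each gene in GENCODE release 29 (columns). The own-gene cell is the highest of its row for U2AF2, SF3B2, SF3B3, PRPF8, EFTUD2 (24) and DBR1, while SF1 ties with PRPF8 at 3, SF3B1 (1) and SNRNP200 (2) are exceeded by another gene, and U2AF1 has no pair.

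The windows of SF3B1 and SNRNP200, both on chromosome 2, matched their own introns no more often than those of other genes when exact lengths were asked for (1 and 2 pairs). Their targets were often a few bases short of the full width. Intervals of 96 to 99 nt made up 52.5% of the 40 in SF3B1 and 56.3% of the 64 in SNRNP200, against 9.27% on chromosome 2 as a whole and 2.57% in the whole list. When pairs over 1000 nt were allowed to fall up to 8 nt short of an intron, 4 of 11 matched in SF3B1 and 6 of 8 in SNRNP200, and no other gene matched more than 1 in either window. Under the same rule the own gene also led in U2AF2, SF3B3, EFTUD2 and DBR1. It did not lead in SF1 (0 against 1), SF3B2 (1 against 1) or PRPF8 (1 against 1). Over all 10 genes, 58.3% of intervals had exactly 100 nt, the stated length of a targeted intron end, against 87.7% of the whole list. For the 8 genes on other chromosomes the share was 79.0%.

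Outside chromosome 2, intervals over 1 base wider than the full 100 nt mostly had the length of a whole short intron. Of 19 such intervals in the 8 genes on other chromosomes, 18 had a width 1 base under that of an intron of the gene. On chromosome 2 this held for 1 of 6 in SNRNP200 and 0 of 1 in SF3B1, which made it 19 of 26 over all 10 genes. Another of the 10 genes fitted at most 1 width in the windows of SF1, PRPF8 and SNRNP200, and none in the other windows. In SF1 and SNRNP200 this equalled the own count. The whole list held 12721 intervals of such widths among its 377858. PRPF8 held 13 of the 19, 12 of which fitted one of its introns. These 13 were 102 to 199 nt wide, with the widest at chr17:1562451-1562649 (score 22). Their median score was 53, with 22 and 93 as the lowest and highest, and that of the 24 PRPF8 intervals of exactly 100 nt was 33, from 0 to 72. Introns just over 200 nt left an almost unbroken target. The ends of a 202 nt SF1 intron, at chr11:64537526-64537625 and chr11:64537627-64537726, lay 1 base apart, and those of a 204 nt PRPF8 intron lay 3 bases apart.

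The number of targets of each gene was set beside a rebuilt design, since the study removed intron ends under annotated exons. Laying 100 nt at each end of every intron of release 29 and removing all annotated exons gave 330 intervals for the 10 genes, against the 309 deposited (93.6%). For the whole list the deposited number was 85.2% of the rebuilt one. These shares mix the change from GENCODE release 12, on which the design was based, to release 29 with the steps the rebuilding leaves out, namely repeats and highly transcribed regions.

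U2AF1, the subunit that reads the 3′ splice site AG, was almost absent from the design. Its only interval was chr21:44527460-44527559, with a score of 42. The nearest listed targets lay 30611 nt below it (score 37) and 33364 nt above it (score 0). Only 1 interval number was unused between it and the target below. In release 29, 88.0% of the bases at U2AF1 intron ends lie under annotated exons, more than in any of the other genes (6.83% in DBR1 to 34.6% in SF1), and the rebuilt design kept 2 intervals. A transcript of U2AF1 annotated as a retained intron covers 41.4% of these bases by itself.

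DBR1 and SF3B1 had as many intervals as the rebuilt design, 13 and 40. SNRNP200 had 64 of 66 and SF3B3 45 of 46. The largest deficits were those of SF3B2 with 20 of 29 (69.0%), SF1 with 14 of 20 (70.0%) and U2AF2 with 16 of 21 (76.2%). PRPF8 had 44 of 50 (88.0%). EFTUD2 had more than the rebuilt design, 52 against 43.

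The longest untargeted stretch of PRPF8 ran over 10944 nt, at chr17:1565548-1576491, and the rebuilt design had a longest stretch of the same 10944 nt. The longest stretches were also equal in SF3B2 (4216 nt) and DBR1 (3203 nt), and 10796 against 10797 nt in SF3B1. In SNRNP200 the longest stretch, 4262 nt, exceeded its longest annotated intron of 2254 nt, and the rebuilt design had 4254 nt. In 4 genes the stretches differed: 7143 nt against 3021 rebuilt in SF1, 7731 nt against 4883 in EFTUD2, 4677 nt against 3819 in SF3B3 and 4561 nt against 4801 in U2AF2.

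**Figure D2:**
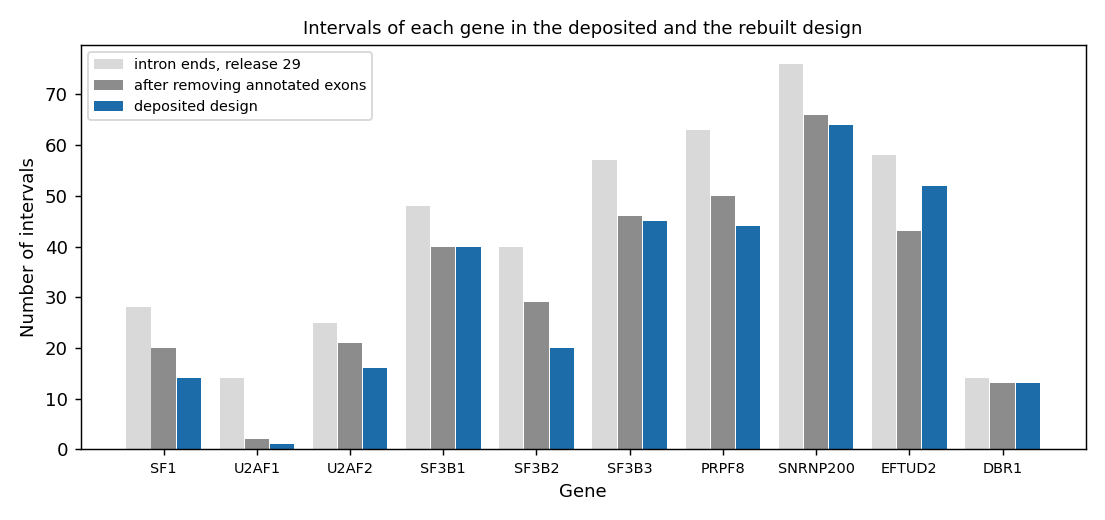
Number of intervals for each gene: merged intron ends of GENCODE release 29 (light grey), those left after removing annotated exons (dark grey) and those in the deposited design (blue). U2AF1 falls from 14 to 2 and 1, and EFTUD2 is the gene with more deposited (52) than rebuilt (43) intervals.

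Scores in the 10 genes lay mostly above those of the list. The median was 14 over the 309 intervals (quartiles 6 and 40) and 1 over the whole list (quartiles 0 and 6). A score of 0 was held by 11 intervals (3.56%), against 47.2% of the whole list. Scores of 19 or more were held by 136 (44.0%), against 10.4% of the list, and scores of 50 or more by 21.4%, against 3.05%. The genes did not share 1 level: the 2 on chromosome 2 and DBR1 were low, and the median of the 8 genes on other chromosomes was 30.

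Among the genes of branchpoint recognition, U2AF2 had the highest scores of all 10 genes. Its 16 intervals ran from 11 at chr19:56180548-56180648 to 125, with a median of 67. A score of 125, the highest in the list, was given to 54 intervals of the list, and 2 of them were in U2AF2, of which the first was chr19:56174872-56174971. SF1 ran from 1 to 82 over 14 intervals, with a median of 24. Its highest score was at chr11:64534748-64534823, and the lowest at chr11:64545358-64545457, its last target towards the 5′ end of the gene. The single U2AF1 score of 42 lies within the range of both.

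Among the U2 snRNP genes, SF3B3, a large beta-propeller protein, ran from 1 to 95 over 45 intervals with a median of 28. SF3B2, which contacts the pre-mRNA near the branchpoint, ran from 1 to 100 over 20 intervals with a median of 23.5. SF3B1 was lower, from 0 to 73 over 40 intervals, with a median of 5. Its value of 73, at chr2:198264891-198264975, stood apart, as the next highest SF3B1 score was 21.

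Among the U5 snRNP genes, PRPF8 ran from 0 to 93 over 44 intervals with a median of 48, and EFTUD2 from 4 to 103 over 52 intervals with a median of 28.5. No EFTUD2 interval scored 0. SNRNP200, the helicase that unwinds the U4 and U6 snRNAs, ran from 0 to 106 over 64 intervals with a median of 6.5. Its highest score, at chr2:96943689-96943788, was followed by 35 as the next highest, so a single interval stood apart as in SF3B1.

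DBR1, the debranching enzyme, had the lowest scores. Its 13 intervals ran from 0 to 9 with a median of 4, and none reached 19. Even so, its median exceeded 66.6% of the scores of the whole list and 69.9% of those on chromosome 3.

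In the order of medians, U2AF2 was followed by PRPF8, EFTUD2, SF3B3, SF1, SF3B2, SNRNP200, SF3B1 and DBR1, without U2AF1. The quartile ranges of neighbours in this order overlapped, except those of SF3B2 (15.3 to 38) and SNRNP200 (4 to 9). A gap in level thus separated 6 genes with medians of 23.5 to 67 from 3 genes with medians of 4 to 6.5. Both SNRNP200 and SF3B1 lie on chromosome 2, whose intervals had a median score of 0 and where the targets had unusual widths, so gene and chromosome cannot be told apart for these 2. Within chromosome 2, the SNRNP200 median exceeded 83.2% of scores and the SF3B1 median 77.0%. The medians of SF1, U2AF2, SF3B2, SF3B3, PRPF8 and EFTUD2 exceeded 89.0% (SF3B3) to 95.4% (U2AF2) of the scores of their chromosomes.

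**Figure D3:**
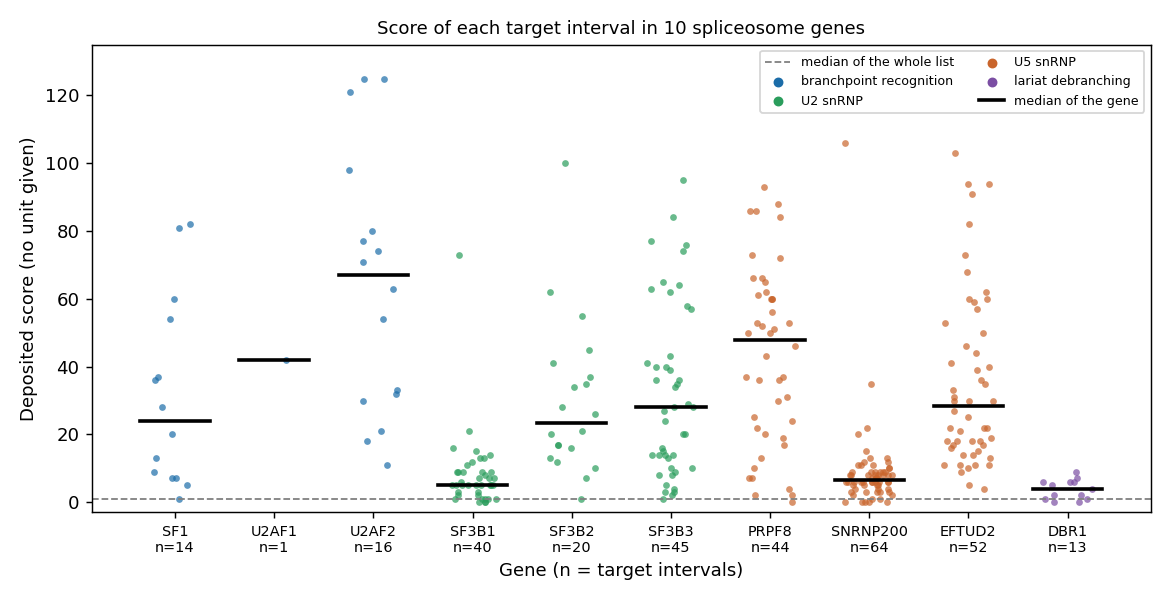
Deposited score of every target interval (points, spread sideways for visibility) in the 10 genes, with the gene median as a black bar and the median of the whole list as a dashed line. U2AF2 (median 67) and PRPF8 (48) are highest, and SF3B1 (5), SNRNP200 (6.5) and DBR1 (4) form a low group, in which 2 single intervals reach 73 and 106.

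Scores of the genes were also set beside those of their surroundings. The 820 intervals within 100 kb of the windows had a median score of 3, and 27.2% of them scored 0. In 9 of 10 genes the median lay above that of its own surroundings. U2AF1 counts among these 9 by its single interval, 42 against a median of 6 and an upper quartile of 35.5 around it. EFTUD2 had 28.5 against 1, PRPF8 48 against 3, U2AF2 67 against 9, SF1 24 against 3 and SF3B3 28 against 7. SNRNP200 was the exception, with 6.5 against 7 in the 61 intervals around it.

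The relation of score to position from 5′ to 3′ varied between the genes. Spearman's rho between order and score, across intervals that share a gene and are not independent, ran from 0.0032 in SF3B3 (45 intervals) to 0.53 in SF1 (14 intervals). It was positive in all 9 genes with more than 1 interval. In SF3B1 it was 0.13 over 40 intervals and 0.85 over its 6 intervals of exactly 100 nt. In SF1, the 5′ part of the gene had a median of 7 and the 3′ part 36. In EFTUD2, high and low scores alternated along the gene, with values of 94, 14 and 30 in 3 neighbouring targets.

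**Figure D4:**
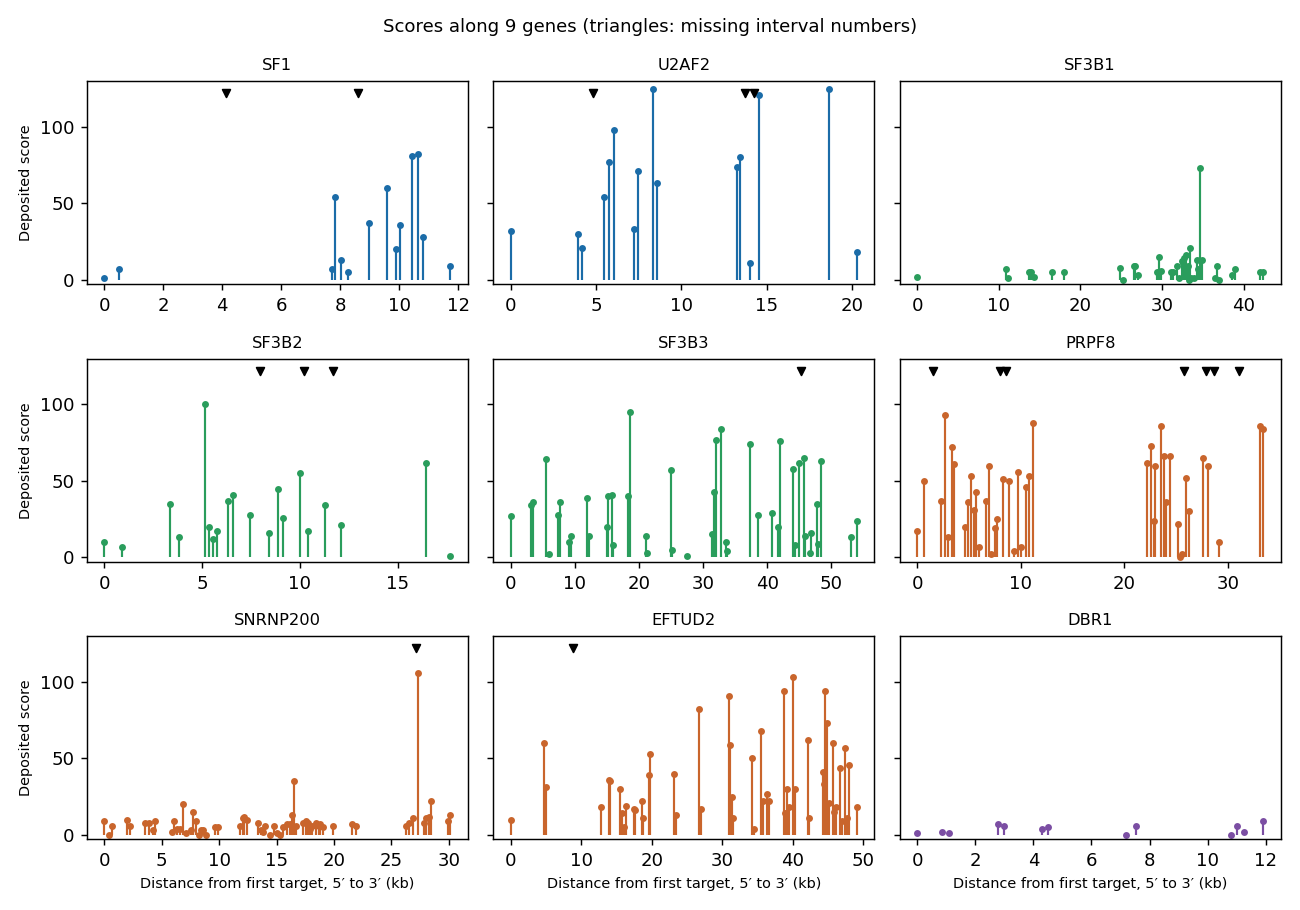
Deposited score of each target against distance from the first target in the direction of transcription, in kb, for the 9 genes with more than 1 target. Triangles mark places where interval numbers are missing; scores alternate over short distances in EFTUD2 and SF3B3, and single high targets stand out in SF3B1 (73) and SNRNP200 (106).

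In EFTUD2, the alternation mostly followed the 2 ends of introns. SF3B1 and SNRNP200 on chromosome 2, with 1 and 2 exact matches, were left out here and are described below. In the 7 other genes with exact matches, 64 introns with both ends targeted could be placed in gene order. The 3′ end, where the branchpoint lies, had the higher score in 52 of them (81.3%), and the 5′ end in 12. Over pairs of neighbouring intervals in the whole list with a score above 0 on at least 1 side, the left one was higher in 47.0% and the right one in 47.0%. The strand of those pairs was not used, so they show only that the list as a whole has no left or right preference. The median score was 43.5 at 3′ ends and 17 at 5′ ends, and the median difference within an intron was 25.5.

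EFTUD2 gave 23 of the 64 introns, and its 3′ end was higher in 18. The largest difference was that of an intron of 723 nt, with 103 at its 3′ end (chr17:42936550-42936649) and 18 at its 5′ end (chr17:42937172-42937271). In an intron of 2169 nt the scores were 94 and 22, and in one of 4095 nt they were 91 and 17. In the 5 EFTUD2 introns with the higher score at the 5′ end, the difference of 3′ minus 5′ ran from -34 to -2, and the widest was that of an intron of 389 nt with 25 at its 3′ end and 59 at its 5′ end. The EFTUD2 exon printed above lies between the introns of 4095 and 389 nt, so the target before it scored 91 and the one after it 59.

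In SF3B3, the 3′ end was higher in 11 of 14 introns, with medians of 39.5 at 3′ and 15.5 at 5′ ends. An intron of 3836 nt had 57 at its 3′ end (chr16:70582173-70582272) and 3 at its 5′ end (chr16:70578438-70578537). The SF3B3 intron just before it, of 2603 nt, had the reverse order and the widest such difference of all 64, with 14 at its 3′ end and 95 at its 5′ end (chr16:70575739-70575838). The printed SF3B3 exon of 96 bases lies between these 2 introns, so it has 14 before it and 3 after it, and the score of 95 is the highest of the gene.

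All 8 matched PRPF8 introns had the higher score at the 3′ end. Their medians were 58 at 3′ and 18 at 5′ ends, and the differences ran from 6 to 59. In an intron of 423 nt the scores were 72 at the 3′ end (chr17:1584349-1584448) and 13 at the 5′ end (chr17:1584671-1584770). The printed PRPF8 exon had 56 before it and 7 after it. The groups of 3′ and 5′ scores overlapped, since the lowest 3′ score was 25 and the highest 5′ score 36.

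All 4 matched SF3B2 introns were also higher at the 3′ end. Their 5′ scores were 17, 16, 26 and 17, and their 3′ scores 37, 45, 55 and 34, so the groups did not overlap. The 3 matched SF1 introns had 20, 37 and 7 at the 5′ end and 36, 60 and 54 at the 3′ end. The SF1 values rest on a window that the length check did not set apart, and without SF1 the share over the other genes was 80.3% (49 of 61).

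In U2AF2 and DBR1 the median differences were smaller, 7.5 and 3.5. U2AF2 had the higher score at the 3′ end in 4 of 6 introns, with 30, 77, 33, 125, 74 and 125 at the 3′ ends and 32, 54, 98, 71, 63 and 121 at the 5′ ends. Both of the list's highest scores in U2AF2 were at 3′ ends of introns, of 987 and 4241 nt. DBR1 had 9, 6, 0, 4, 7 and 2 at the 3′ ends and 2, 0, 5, 6, 1 and 1 at the 5′ ends, higher at the 3′ end in 4 of 6. The DBR1 5′ score of 6 is that of a target of 163 nt, read here as an end of an intron of 1440 nt. The same target was counted above among those with the length of a whole intron, and lengths alone do not decide between the 2 readings. The groups overlapped in both genes.

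The 2 genes on chromosome 2 were described from introns over 1000 nt matched with up to 8 nt to spare, and in them neither end was clearly higher. SF3B1 had 5, 5, 5 and 7 at the 3′ ends of 4 introns and 6, 5, 1 and 2 at the 5′ ends. SNRNP200 had the higher score at the 3′ end in 3 of 6 introns, with medians of 8 and 7.5. Over both genes the 3′ end was higher in 5 of 10 and lower in 4, with a median difference of 0.5. Whether the 2 genes differ from the other 7 in this respect was not tested.

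**Figure D5:**
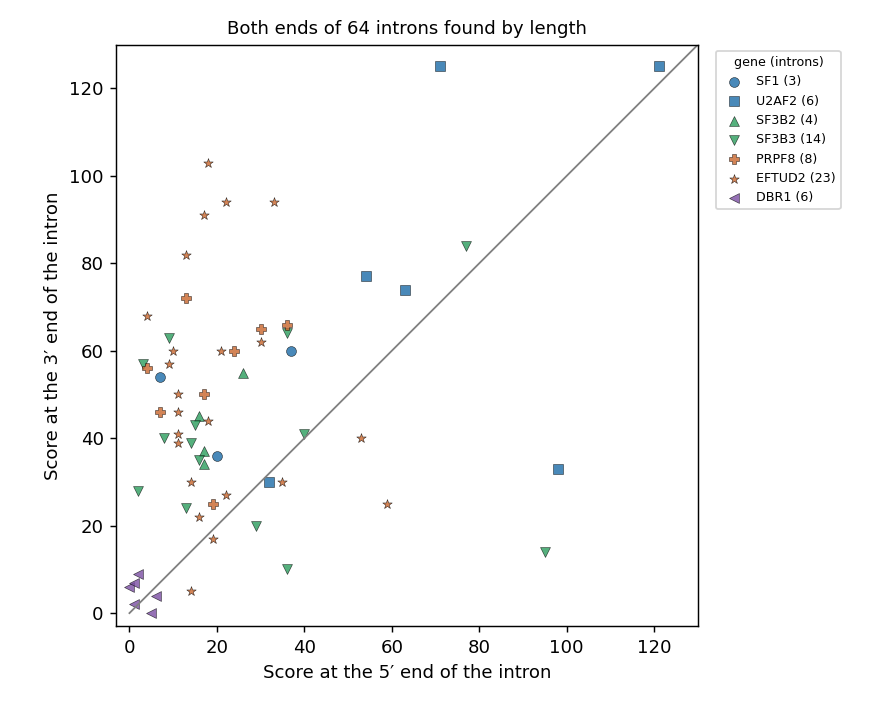
Score at the 3′ end against the score at the 5′ end of each of 64 introns identified by length in 7 genes, with the line of equal scores. Of the 64 points, 52 lie above the line, among them all 8 of PRPF8, all 4 of SF3B2 and all 3 of SF1.

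The same ends can be set side by side across exons in place of introns. Exon lengths set the own gene apart less than intron lengths did in some windows. EFTUD2 had 26 own matches against at most 4 for another of the 10 genes, PRPF8 17 against 4 and SF3B3 13 against 4. DBR1 had 6 against 3, SF3B2 4 against 1, U2AF2 4 against 2 and SF1 3 against 2. On chromosome 2, left out here, SF3B1 had 2 against 7 and SNRNP200 11 against 10. Of 73 gaps with the length of an exon in the 7 genes, 62 followed the gene's order and spanned no intron matched in that order. The 3′ end of the intron before the gap scored higher than the 5′ end of the intron after it in 43 of the 62 (69.4%), with medians of 43.5 and 21. EFTUD2 had this direction in 21 of its 23 gaps. PRPF8 had 8 of 13, SF3B3 6 of 12, U2AF2 2 of 4, DBR1 2 of 4, SF3B2 1 of 3 and SF1 3 of 3. The direction was thus not shared by all genes. Median differences were 41 in SF1, 29 in EFTUD2, 20 in PRPF8, 2 in SF3B3, 0 in DBR1, -4 in SF3B2 and -6 in U2AF2. Many targets enter this comparison and the one within introns, so the 2 counts are not independent. Over all 233 gaps of up to 1000 nt in the 10 genes, which mix exons with introns, 109 were higher on the 5′ side of the gap, 114 lower and 10 equal.

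Interval numbers run along each chromosome, and some are not used. Within the 10 genes, 27 of 336 numbers were missing (8.04%), against 1.24% of all numbers of the list. The genes fell into 2 classes. U2AF2 lacked 6 of 22 (27.3%), SF3B2 6 of 26 (23.1%), SF1 4 of 18 (22.2%) and PRPF8 8 of 52 (15.4%). SF3B3, SNRNP200 and EFTUD2 each lacked 1, and SF3B1 and DBR1 lacked none. SF3B2, SF1, U2AF2 and PRPF8 were also the genes, U2AF1 aside, with the lowest numbers of targets relative to the rebuilt design. U2AF2 and PRPF8, with the highest median scores (67 and 48), were among the genes that lacked most numbers. EFTUD2 had a median of 28.5, above those of SF1 (24) and SF3B2 (23.5), and lacked 1 of 53 numbers. Whether score and missing numbers are related was not tested.

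Targets next to missing numbers were compared with the other targets of the same gene, since pooled values mix genes of different level. Of the 7 genes with such neighbours, their median score was above that of the gene's other targets in 4 and below it in 3. In the 4 genes that lacked most numbers, it was 50 against 43 in PRPF8 and 24.5 against 23 in SF3B2, but 54 against 71 in U2AF2 and 7 against 32 in SF1. In SNRNP200, the only missing number lay beside the highest-scoring interval of the gene, with 106 on one side and 11 on the other. In U2AF2, numbers were missing beside scores of 80, 121, 54, 21 and 11. In SF1, 2 numbers were missing in its longest untargeted stretch, chr11:64537727-64544869, with a score of 7 on both sides. In EFTUD2, the missing number also lay in the longest stretch, chr17:42963953-42971683, between scores of 18 and 31. The sources used here do not say what the missing numbers stood for.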

How the data were processed

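The design took the outermost 100 nt of GENCODE release 12 introns on both sides, per the labels' protocols. The authors removed parts under annotated exons or in regions highly transcribed in K562, and the array maker left out repeats. The submitters' processing notes name hg19, Bowtie2, TopHat2 and bedtools, without saying which made the list. The deposited score has no stated meaning or normalisation. The authors' other values are the start and end of each interval.

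Targets fully inside 10 windows were taken, and all were kept. No statistical test was run: the list has 1 value per interval and none per library, and the genes and lists were chosen with earlier results of these data known. Coordinates are 1-based. Exon and intron lengths and strands came from GENCODE release 29 on GRCh38, without converting coordinates. Matching by length plus 1 nt allows for left edges 1 nt inside the intron, a shift known from an earlier look at these data, and introns and exons were kept where they followed the gene's order, exon gaps also only where they spanned no intron kept in this way. In the 2 genes on chromosome 2, introns were matched with up to 8 nt to spare, in any order. Named intervals are the highest, lowest, widest and narrowest of each gene and the neighbours of missing numbers, with introns of large differences chosen after their values were seen. A planned list of other spliceosome genes was not analysed here, since the windows cover 10 genes only. Python 3.11.15, numpy 2.4.6, pandas 2.3.3, scipy 1.17.1 and matplotlib 3.10.9 were used.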

Additional observations from a re-analysis of the deposited data

How the results depend on the processing

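The higher score at 3′ ends kept its direction under the 7 alternatives run, all chosen after seeing the data, with shares from 77.0% to 82.9%. The typical score of the 10 genes, a median of 14, depended on the measure, the widths and the genes counted. The mean was 26.8. The median was 24.5 for intervals of exactly 100 nt and 30 without the genes on chromosome 2, and the median of gene medians was 26. The share at score 0 was 1.67% for intervals of 100 nt and 1.46% without chromosome 2. Scores of 19 or more rose to 63.4% without chromosome 2, and 21.4% reached 50. Full width was 80.3% when widths from 96 nt to 1 base above 100 were counted and 79.0% without chromosome 2. Gaps of an exon length were 49.0% of those up to 1000 nt in the 8 genes and 71.0% up to 300 nt. Up to 1000 nt these were 73 of 149 gaps, against 20 when the best-matching other gene was taken in each window. Across all gaps, the median of 3′ minus 5′ scores was 0, -3 between 100 nt intervals and, at gaps of exon length, 15 in gene order, 14 when gaps spanning an intron matched in any order were also left out and 11 in any order. The median of SNRNP200 exceeded that of its surroundings when these were taken to 500 kb, which made it 10 of 10 genes, U2AF1 with its single interval included. No paired analysis was possible because there is 1 group without values for single libraries, so no replicate could be left out. Whether the score depends on a depth is unknown.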
